A study of Mus musculus with 8 samples.

Results

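The chemokine family was examined as 57 genes out of 22180 with a probe set of their own on the arrays. Members were taken by symbol: Ccl, Cxcl, Ccr, Cxcr or Ackr followed by a digit, and Cx3cl1, Cx3cr1, Xcl1, Xcr1 and Ccrl2, with the brightest of a gene's probe sets over all arrays. They comprised 34 ligands and 23 receptors. Gene expression had been measured in medulloblastomas, cerebellar tumours harvested from 15-day-old mice, on 8 single-colour arrays of 2 groups. All mice carried Math1-Cre and SmoM2, an activated Smoothened that drives the Sonic hedgehog pathway, and no exogenous agent was given. The Bcl2l1-deleted group (4 animals) was in addition Bcl2l1 f/f, so that Cre deletes Bcl2l1, which encodes BCL-xL, an inhibitor of apoptosis, whereas the 4 controls were Math1-Cre/SmoM2 alone. The Math1 (Atoh1) promoter directs Cre to granule neuron precursors, so microglia, vessel cells and other cells outside that lineage are not its intended target.

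Chemokines are small secreted or membrane-tethered proteins that direct the movement of leukocytes, and of some neural precursors, along concentration gradients. They are named for the spacing of their first cysteines (CC, CXC, CX3C, XC) and act on G protein-coupled receptors, while atypical receptors bind and remove ligands without the usual G protein signal. In the developing cerebellum, Cxcl12 from the meninges acts on Cxcr4 of granule neuron precursors, and Cx3cl1 from neurons acts on Cx3cr1 of microglia. Inflammatory ligands such as Ccl2, Ccl3 and Cxcl10 are made by microglia, astrocytes and infiltrating cells after injury or infection.

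Values are log2 RMA expression values, 1 per gene and array. Bcl2l1 itself lay between 5.32 and 5.69 on the Bcl2l1-deleted arrays and between 6.57 and 6.98 on the control arrays, as the labels state. The 9 measured granule neuron progenitor markers, Atoh1, Gli1 and Cxcr4 among them, had mean levels of 9.91 to 10.05 and 9.48 to 10.02. Control replicate 2 stood apart, with correlations of 0.920 to 0.948 to the other arrays, which correlated with each other at 0.966 or above. The chemosensory receptor genes, which report mostly background, had a median of 3.60 there. Control replicates 1, 3 and 4 gave 2.94 to 3.09, and the Bcl2l1-deleted group 2.79 to 2.92. The tested genes had a median fitted change of 0.17 (Bcl2l1-deleted minus control, log2). Changes below are relative to that median gene, with the standard error and limma adjusted p of the fitted change. The number of arrays limits the precision, and in whole tumours more cells of a type cannot be told apart from more RNA per cell.

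The comparison of genotypes asks how the tumours differ once Bcl2l1 is removed. Among the chemokine genes, 6 ligands rose and 1 fell, and no receptor passed the test. Ccl3, a macrophage chemoattractant, rose 3.08-fold, and Cxcl5, a neutrophil attractant, rose 2.59-fold. Cxcl10, Cxcl16, Ccl28 and Ccl2 rose between 1.77-fold and 2.03-fold, while the probe set of Ccl27a fell 2.14-fold. Of the 57 genes, 36 exceeded the filter on dim signals (a mean of 4.38 over the arrays) and were tested, and 7 of these (19.4%) passed an adjusted p of 0.05, against 6.52% of all 15526 genes tested. The share of all tested genes called higher was 4.93% and that called lower 1.60%. In 10 of the 36 (27.8%) the groups did not overlap, near the 23.4% of all tested genes: 7 were higher (19.0% of all tested genes were) and 3 lower (4.46%). The median change of the 36 was -0.08, within a range of -1.10 to 1.62, and it was 0.12 without control replicate 2. With each of Bcl2l1-deleted replicates 1 to 4 left out, 0, 1, 6 and 4 chemokine genes passed, where 0.129%, 0.213%, 2.89% and 1.39% of all tested genes did. With control replicates 1 to 4 left out it was 8, 8, 4 and 3, against 12.8%, 13.4%, 2.97% and 1.01%. The share over all genes was below 6.52% in each setting with fewer than 7 chemokine calls and above it in the others. The 8 without control replicate 2 were 6 higher and 2 lower.

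**Figure D1:**
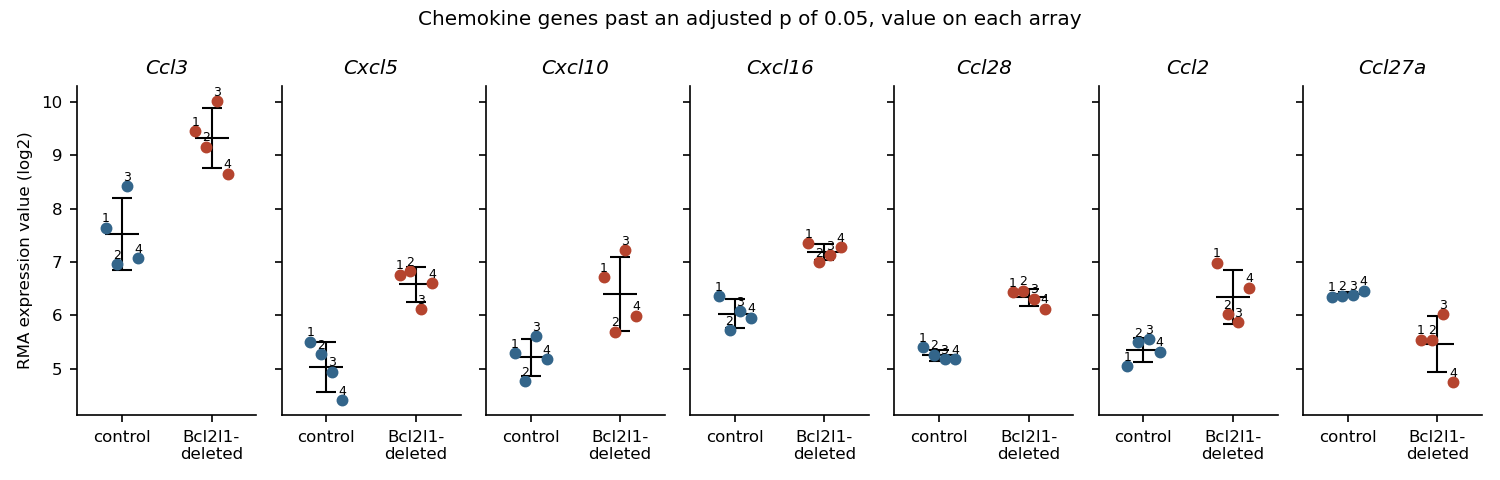
Log2 RMA expression value (vertical axis) of each of the 7 chemokine genes past an adjusted p of 0.05, on the 4 control (blue) and 4 Bcl2l1-deleted (red) arrays. Digits are replicate numbers, and black bars are group means with their SD. No gene's groups overlap, with Ccl3 between 8.65 and 10.01 in the Bcl2l1-deleted tumours and between 6.96 and 8.42 in the controls.

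Among the CC ligands, 3 of 15 tested genes rose and 1 fell, where 4.93% of all tested genes rose and 1.60% fell. Ccl3 encodes MIP-1α, a ligand of Ccr1 made by macrophages and microglia. It stood at 9.45, 9.16, 10.01 and 8.65 on Bcl2l1-deleted arrays 1 to 4 and at 7.64, 6.96, 8.42 and 7.07 on control arrays 1 to 4. The lowest Bcl2l1-deleted tumour was thus above the highest control. The group means were 9.32 ± 0.57 and 7.52 ± 0.67 (SD, n = 4 each), a relative log2 change of 1.62 ± 0.35 (SE, adjusted p = 0.0218). Ccl2 encodes MCP-1, the main ligand of the monocyte receptor Ccr2. It stood at 6.99, 6.03, 5.88 and 6.52 on the Bcl2l1-deleted arrays and at 5.05, 5.50, 5.56 and 5.32 on the controls, again without overlap. Bcl2l1-deleted replicate 1 was the highest and replicate 3 only 0.32 above the highest control. Its relative log2 change was 0.82 ± 0.24 (SE, adjusted p = 0.0397). Ccl28, an epithelial chemokine that acts on Ccr10 and Ccr3, had the tightest groups, with 6.44, 6.47, 6.32 and 6.13 against 5.40, 5.26, 5.18 and 5.18. All 4 Bcl2l1-deleted tumours lay within 0.34 of each other and well above the controls, and the relative log2 change was 0.91 ± 0.14 (SE, adjusted p = 0.00905).

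Among the CXC ligands, 3 of 8 tested genes rose and none fell, where 4.93% of all tested genes rose and 1.60% fell. Cxcl5 encodes LIX, a ligand of the neutrophil receptor Cxcr2. It measured 6.76, 6.83, 6.11 and 6.61 on the Bcl2l1-deleted arrays and 5.51, 5.28, 4.95 and 4.42 on the control arrays. The groups were separated, and the controls spread more widely (SD 0.47) than the Bcl2l1-deleted tumours (SD 0.32). The relative log2 change was 1.37 ± 0.25 (SE, adjusted p = 0.0140). Cxcl16, a membrane-anchored ligand of Cxcr6 that also serves as a scavenger receptor, measured 7.35, 7.0, 7.12 and 7.28 against 6.36, 5.73, 6.08 and 5.96. Its 4 Bcl2l1-deleted values were close together, and the relative log2 change was 0.98 ± 0.17 (SE, adjusted p = 0.0120). Cxcl10, the interferon-inducible ligand of Cxcr3, measured 6.71, 5.70, 7.22 and 6.0 against 5.30, 4.77, 5.61 and 5.18. Replicates 1 and 3 carried most of its difference, since replicate 2 at 5.70 was barely above control replicate 3 at 5.61. Its relative log2 change was 1.02 ± 0.31 (SE). The fitted change of 1.19 passed narrowly in limma (adjusted p = 0.0484), and in 0 of the 8 settings with an array left out.

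Ccl27a, named for a keratinocyte chemokine that acts on Ccr10, was the gene that fell, but its 2 probe sets disagreed. The probe set used here stood at 5.55, 5.55, 6.02 and 4.75 on the Bcl2l1-deleted arrays and at 6.35, 6.37, 6.38 and 6.47 on the controls, a relative log2 change of -1.10 ± 0.23 (SE, adjusted p = 0.0434). The controls agreed to within 0.11, and every Bcl2l1-deleted value lay below them. The other probe set had means of 4.94 ± 0.58 and 4.80 ± 0.23 (SD, n = 4 each), with overlapping groups (exact permutation test, two-sided, p = 0.83). The probe set that fell had the same value on all 8 arrays as 2 probe sets annotated to Ccl27a together with several near-identical predicted copies. It therefore cannot be assigned to Ccl27a alone. Of the 57 chemokine genes, 1, Ccl27a, shared its values with another probe set in this way.

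**Figure D2:**
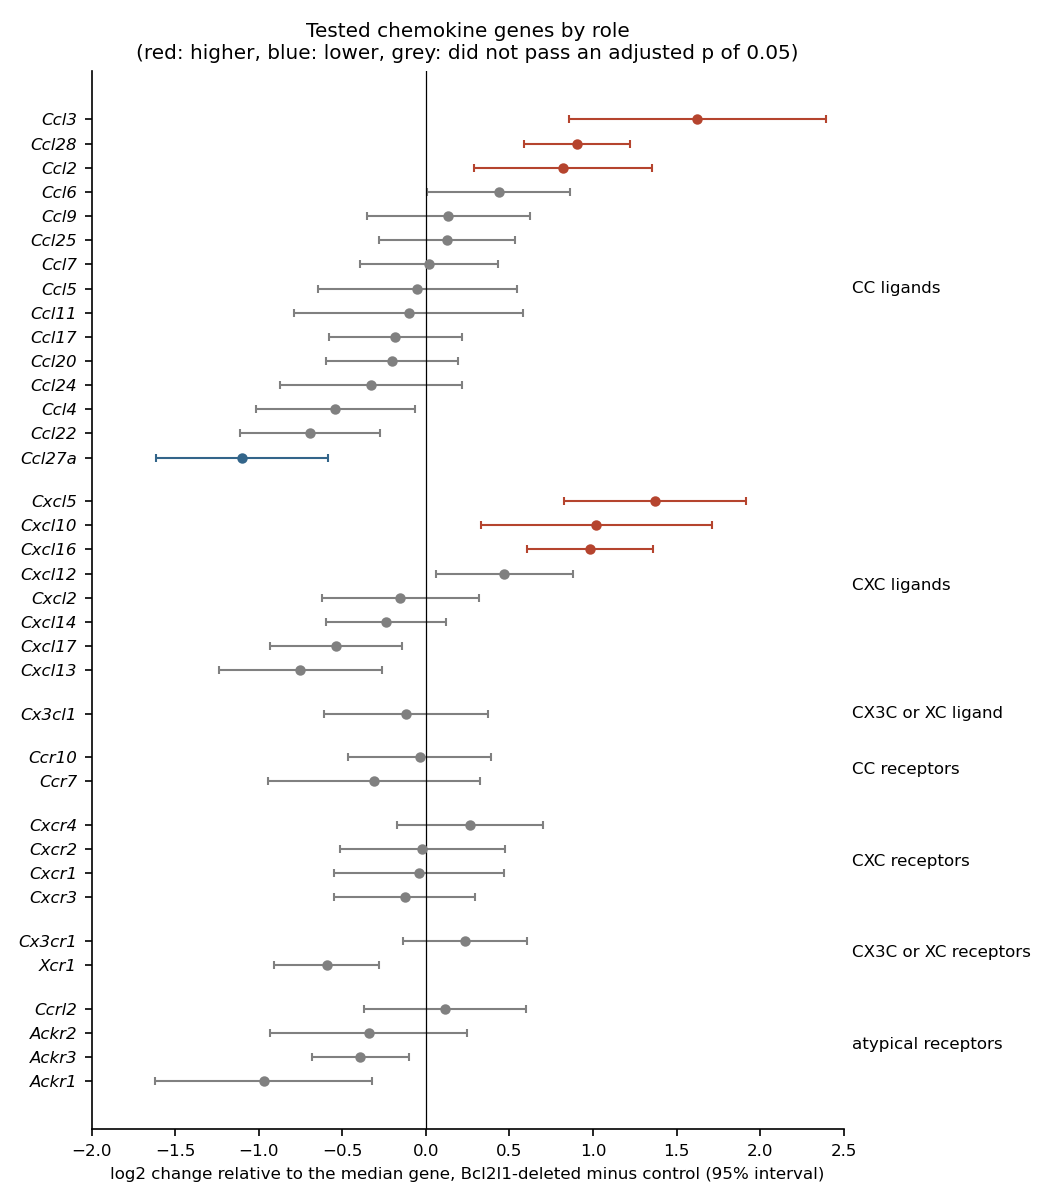
Log2 change of the 36 tested chemokine genes relative to the median gene, Bcl2l1-deleted minus control, with its 95% interval (horizontal axis), ordered by role. The 6 red ligands lie between 0.82 and 1.62, the blue Ccl27a at -1.10, and the 12 receptors between -0.97 and 0.27 with none past the threshold.

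The promoters of the called genes were compared because several inflammatory chemokines are textbook targets of the transcription factors NF-kappaB, IRF and AP-1. RefSeq promoter sequences (GRCm38.p6) were matched for 43 of the 57 genes and for 4 of the 7 that passed, Ccl3, Ccl27a, Ccl28 and Cxcl10. The 250 bases before the annotated start are shown, for Ccl27a before the start farthest upstream. They are printed 5′ to 3′ on the gene's strand, and capitals mark matches on either strand to the kappaB consensus, the interferon response element GAAANNGAAA, the AP-1 site TGANTCA or TATAAA, with overlapping matches joined.
Cxcl10, chr5:92348890-92349139, minus strand: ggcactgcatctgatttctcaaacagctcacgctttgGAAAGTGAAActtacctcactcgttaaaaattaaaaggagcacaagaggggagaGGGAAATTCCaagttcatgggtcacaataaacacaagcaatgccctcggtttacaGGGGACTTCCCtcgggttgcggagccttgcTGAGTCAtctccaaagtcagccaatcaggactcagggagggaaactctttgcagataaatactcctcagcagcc
Ccl3, chr11:83649379-83649628, minus strand: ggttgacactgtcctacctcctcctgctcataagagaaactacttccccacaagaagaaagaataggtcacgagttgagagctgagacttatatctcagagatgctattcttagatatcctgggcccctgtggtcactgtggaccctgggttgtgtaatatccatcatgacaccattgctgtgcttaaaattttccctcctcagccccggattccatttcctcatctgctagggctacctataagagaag
Ccl28, chr13:119623569-119623818, plus strand: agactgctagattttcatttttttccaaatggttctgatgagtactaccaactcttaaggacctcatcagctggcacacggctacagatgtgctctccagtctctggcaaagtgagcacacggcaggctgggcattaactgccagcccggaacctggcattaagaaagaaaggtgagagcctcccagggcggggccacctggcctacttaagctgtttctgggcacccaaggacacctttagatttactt
Ccl27a, chr4:41774177-41774426, minus strand: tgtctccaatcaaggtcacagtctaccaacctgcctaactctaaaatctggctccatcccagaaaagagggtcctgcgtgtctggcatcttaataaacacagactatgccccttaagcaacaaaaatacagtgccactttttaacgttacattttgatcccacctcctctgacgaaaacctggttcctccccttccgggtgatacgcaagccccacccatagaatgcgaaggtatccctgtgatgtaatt

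Cxcl10 held an interferon response element 213 to 204 bases before its start, kappaB matches at 159 to 150 and 104 to 94, and an AP-1 match at 74 to 68. The windows shown of Ccl3, Ccl28 and Ccl27a held none of these motifs. A kappaB match was found before a start of 12 of the 43 chemokine genes with a promoter (27.9%), against 8.23% of all 27025 genes in the promoter table. Among the 12 was a trio of neutrophil attractants, Cxcl1, Cxcl2 and Cxcl3, shown in 30-base windows with the match in capitals to set beside Cxcl10.
Cxcl1, chr5:90891164-90891193, plus strand: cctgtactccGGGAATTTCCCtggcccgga
Cxcl2, chr5:90903792-90903821, plus strand: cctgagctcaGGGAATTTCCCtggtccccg
Cxcl3, chr5:90786018-90786047, plus strand: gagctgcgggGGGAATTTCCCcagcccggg
Cxcl10, chr5:92348974-92349003, minus strand: tcggtttacaGGGGACTTCCCtcgggttgc

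The trio shares a match of the same letters, and none of these genes was called. Cxcl2 had a relative log2 change of -0.15 ± 0.21 (SE, adjusted p = 0.960), and Cxcl1 and Cxcl3 lay under the dim filter. The other kappaB matches belonged to Ackr2, Ccl1, Ccl9, Ccl20, Ccr1, Ccr3, Ccr6 and Ccrl2, and 6 of the 12 were tested, of which 1, Cxcl10, passed. The interferon element was found in 2 of the 43 genes, Cxcl10 and Cxcl14 (4.65%, against 3.46% of all genes), and the AP-1 site in 5 (11.6%, against 7.82%), among them Cxcl10 and a further start of Ccl27a. TATAAA was found in 14 (32.6%, against 14.3%).

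Chemokine genes lie in clusters, and Ccl2, Ccl3, Cxcl5 and Cxcl10 each rose in a run where no neighbour was called, although many neighbours lay under the filter and were not tested. On chromosome 11, Ccl2 heads a run of 6 genes, of which Ccl7 and Ccl11, attractants of monocytes and eosinophils, had relative log2 changes of 0.02 and -0.10 (adjusted p = 0.487 and 0.895), while Ccl12, Ccl8 and Ccl1 lay under the filter. A further run on the same chromosome holds Ccl5, Ccl9, Ccl6, Ccl3 and Ccl4 in that order. Ccl4, a relative of Ccl3 that macrophages often release with it, stood at 4.83, 4.90, 5.01 and 4.67 on the Bcl2l1-deleted arrays and at 4.58, 5.63, 5.38 and 5.30 on the controls. Its groups overlapped, with a relative log2 change of -0.54 ± 0.22 (SE, adjusted p = 0.260), and it depended on the controls, being called lower without control replicate 1 (-0.79, adjusted p = 0.0442) and standing at -0.32 without control replicate 2 (adjusted p = 0.429). The annotated spans of Ccl3 and Ccl4 overlap in RefSeq, and which exons the probe sets cover was not analysed here. The relative log2 change was 0.43 for Ccl6, a macrophage chemokine of rodents (adjusted p = 0.0794, called higher without control replicate 1 at 0.0321), 0.13 for Ccl9 (adjusted p = 0.353) and -0.05 for Ccl5, a T cell attractant (adjusted p = 0.777). On chromosome 5, Cxcl5 neighbours Cxcl3, Cxcl15, Cxcl1 and Cxcl2, of which Cxcl2 was tested and was not called, and Cxcl10 lies between Cxcl9 and Cxcl11. Those Cxcr3 ligands lay under the filter, with Cxcl9 at 4.13 to 4.34 and 4.25 to 4.62 and Cxcl11 at 4.10 to 4.32 and 4.14 to 5.37 in the Bcl2l1-deleted and control tumours.

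**Figure D3:**
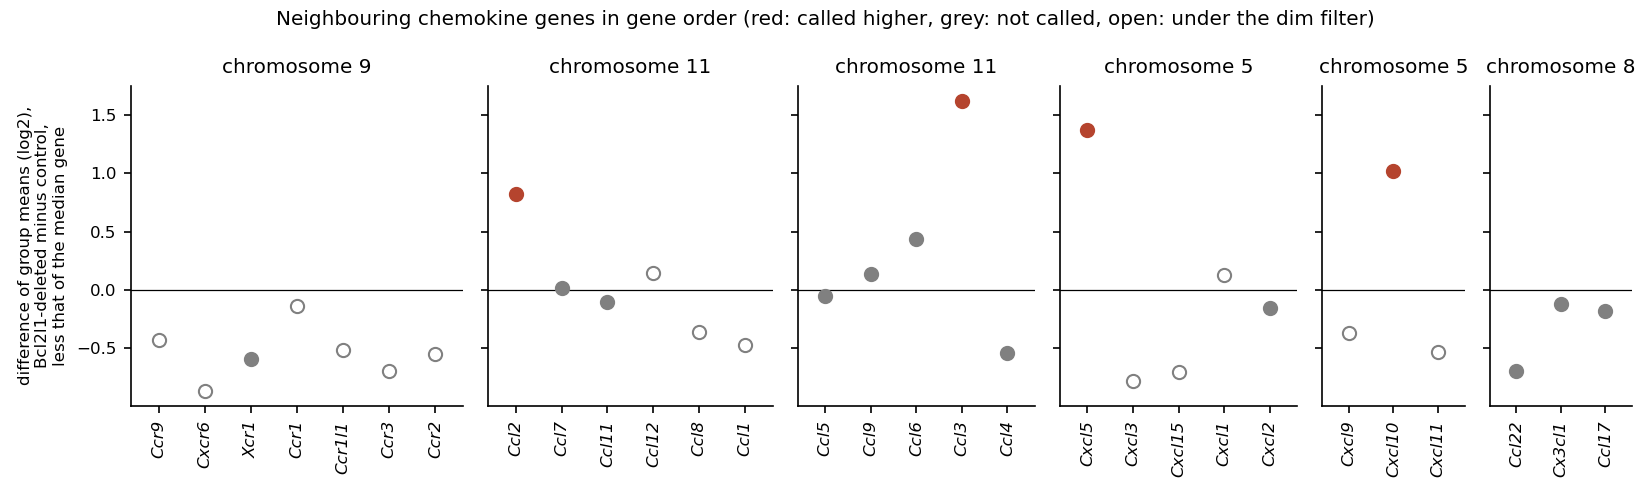
Difference of group means (log2, Bcl2l1-deleted minus control, less the 0.17 of the median gene) for chemokine genes in runs of 3 or more neighbours, in gene order. Filled points were tested and open points lay under the dim filter. In each run with a red (called higher) gene it is 1 gene, Ccl2, Ccl3, Cxcl5 or Cxcl10, and both neighbours of Cxcl10 are open points.

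The remaining ligands were not called. Cxcl12, the ligand of Cxcr4, came nearest, with 7.74, 7.96, 7.85 and 7.65 on the Bcl2l1-deleted arrays and 7.35, 6.65, 7.29 and 7.35 on the controls. Every Bcl2l1-deleted value was above every control, and control replicate 2 was the low one. Its relative log2 change was 0.47 ± 0.19 (SE, adjusted p = 0.0617), and it was called without control replicate 2 (0.38, adjusted p = 0.0291) and without control replicate 1 (adjusted p = 0.0486). For Cxcl14, widely made in epithelium and brain, the relative log2 change was -0.24 (95% interval -0.60 to 0.12, adjusted p = 0.801). For Cx3cl1, the neuronal ligand of Cx3cr1, it was -0.12 (95% interval -0.61 to 0.37, adjusted p = 0.881). The B cell attractant Cxcl13 stood at -0.75 (relative log2 change, adjusted p = 0.113), and the Ccr4 ligands Ccl22 and Ccl17 at -0.69 and -0.18 (adjusted p = 0.103 and 0.971). Cxcl17 (-0.54), Ccl24 (-0.33), Ccl20 (-0.20) and Ccl25 (0.13) completed the tested ligands, with adjusted p between 0.189 and 0.920. Several of these values rested on control replicate 2, without which Cxcl13 stood at -0.47, Cxcl17 at -0.31, Ccl20 at -0.031, Ccl24 at -0.0089 and Ccl17 at 0.0028. Of the 28 uncalled chemokine genes still tested without that array, 8 had the opposite sign, namely Ackr2, Ccl5, Ccl11, Ccl17, Ccr10, Cxcl2, Cxcr1 and Cxcr2. The fitted change of the median gene, which is subtracted, was 0.087 there and 0.17 with all arrays. The share of all tested genes that changed sign was not analysed here.

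None of the 12 tested receptors passed in limma at an adjusted p of 0.05, and 4 had an unadjusted p under 0.05, against 30.5% of all tested genes. In other settings some receptors did pass, with Ackr1, Xcr1 and Ccrl2 called when arrays were weighted by quality (adjusted p = 0.0166, 0.0226 and 0.0291). Cxcr4, which granule neuron precursors use to stay near the meninges, stood at 10.26, 9.92, 9.80 and 9.85 on the Bcl2l1-deleted arrays and at 9.40, 9.11, 9.95 and 9.61 on the controls. Control replicate 3 lay above 3 of the 4 Bcl2l1-deleted tumours, so the groups overlapped. The relative change was 0.27 (95% interval -0.17 to 0.70, adjusted p = 0.162). Cx3cr1, the microglial fractalkine receptor, stood at 8.18, 8.17, 8.40 and 8.24 against 8.18, 7.71, 7.94 and 7.53. Control replicate 1 was level with the Bcl2l1-deleted tumours, and the relative change was 0.23 (95% interval -0.14 to 0.61, adjusted p = 0.137). Xcr1, the receptor of cross-presenting dendritic cells, stood at 4.48, 4.67, 4.77 and 4.64 against 4.91, 5.18, 5.16 and 4.99. Every Bcl2l1-deleted value was below every control, and the relative change was -0.59 ± 0.14 (SE). The limma test is of the fitted change, -0.42, which did not pass (adjusted p = 0.0882).

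The atypical receptors gave no call either. Ackr1, a ligand sink of venular endothelium and red cells that Purkinje cells also express, stood at 7.41, 7.64, 8.71 and 7.88 on the Bcl2l1-deleted arrays and at 9.05, 8.10, 8.68 and 9.0 on the controls. Replicate 3 of the Bcl2l1-deleted group was within the control range, and the relative log2 change was -0.97 ± 0.29 (SE, adjusted p = 0.105). Without control replicate 2 it was called lower (-1.09, adjusted p = 0.0424). The mean level of the 4 Purkinje cell markers was 6.17, 7.57, 9.08 and 5.35 on the same Bcl2l1-deleted arrays and 8.57, 7.85, 7.36 and 8.09 on the controls, and its part in the Ackr1 values was not tested. Ackr3, which removes Cxcl12, stood at 5.97, 5.91, 5.76 and 5.79 against 6.06, 6.02, 6.09 and 6.13, lower on every Bcl2l1-deleted array by a small margin (relative log2 change -0.39 ± 0.13 SE, adjusted p = 0.274). The relative log2 change of Ackr2, a scavenger of inflammatory CC ligands, was -0.34 and that of Ccrl2, which presents chemerin, 0.12 (adjusted p = 0.678 and 0.378), and without control replicate 2 they were 0.0022 and 0.38. The neutrophil receptors Cxcr1 and Cxcr2, the T cell receptor Cxcr3, the lymph node homing receptor Ccr7 and the skin homing receptor Ccr10 had relative log2 changes between -0.31 and -0.02 (adjusted p between 0.645 and 0.883).

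Matching ligands to receptors, each ligand that rose had a textbook receptor that was under the filter or not called. The Ccl3 receptor Ccr1 lay between 3.21 and 3.83 over all arrays, and the Cxcl16 receptor Cxcr6 between 3.39 and 5.51, its top value on control replicate 2. The Ccl2 receptor Ccr2 lay between 3.17 and 3.51 on the Bcl2l1-deleted arrays and between 3.67 and 3.94 on the controls. The relative log2 change was -0.13 for the Cxcl10 receptor Cxcr3 (95% interval -0.55 to 0.30), -0.02 for the Cxcl5 receptor Cxcr2 (95% interval -0.51 to 0.47) and -0.04 for the Ccl28 receptor Ccr10 (95% interval -0.47 to 0.39). A change in a receptor with signal near background may not be detectable on these arrays.

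The 21 members under the filter were Ccl1, Ccl8, Ccl12, Ccl26, Cxcl1, Cxcl3, Cxcl9, Cxcl11, Cxcl15, Xcl1, Ccr1, Ccr1l1, Ccr2, Ccr3, Ccr4, Ccr6, Ccr8, Ccr9, Cxcr5, Cxcr6 and Ackr4, with values from 2.25 to 5.51. In 15 of the 21 the highest value was on control replicate 2, where 58.9% of all genes under the filter had theirs. With no filter, none of the 21 passed in limma (lowest adjusted p = 0.111), where 2.47% of all 22180 genes passed. Of the 21, 4 had an unadjusted p under 0.05 there. In the fit with the filter 30.5% of all tested genes did.

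**Figure D4:**
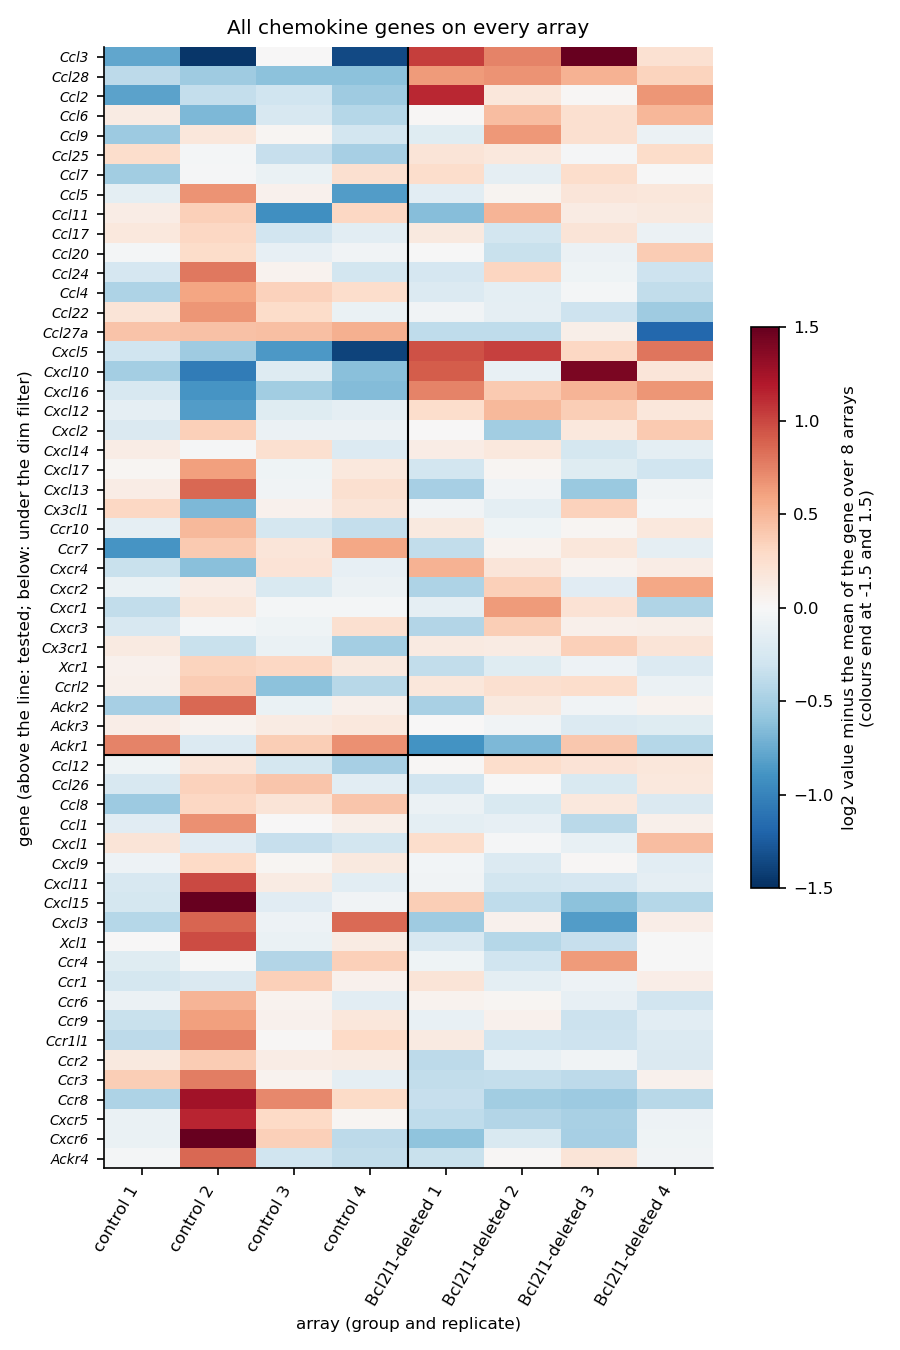
Log2 value of each of the 57 chemokine genes on each array, less the gene's mean over the 8 arrays (colour scale), with the 36 tested genes above the horizontal line and the 21 under the dim filter below it. The column of control replicate 2 is red for most genes below the line, 15 of which have their highest value there.

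Genes that carry the signal from chemokine receptors were taken as a list: G protein subunits, receptor kinases and arrestins, and the exchange factors and kinases that turn receptor signals into movement. Of 37 measured genes 34 were tested, of which 6 rose, 1 fell and 27 did not pass, with a median relative change of 0.10. Of all genes tested, 4.93% rose and 1.60% fell. Vav1 rose by 1.10 ± 0.21 (relative log2 change ± SE), Dock2 by 0.97 ± 0.19 and Pik3cg by 0.70 ± 0.14, each with an adjusted p of 0.0140. These are a Rac exchange factor, a second such factor of leukocytes and the G protein-coupled catalytic subunit of phosphoinositide 3-kinase. Rgs10, a microglial inhibitor of G protein signals, rose by 1.00 ± 0.24 (adjusted p = 0.0247), the actin regulator Was by 0.75 ± 0.20 (adjusted p = 0.0281) and the haematopoietic GTPase Rac2 by 0.92 ± 0.28 (adjusted p = 0.0457). Tiam1, a Rac exchange factor of neurons, fell by 0.80 (relative log2 change, SE 0.15, adjusted p = 0.0378). The widely expressed Gnai2 (0.06, adjusted p = 0.259) and Arrb2 (-0.38, adjusted p = 0.320) did not pass. With each of Bcl2l1-deleted replicates 1 to 4 left out the count was 0, 0, 3 and 4, where 0.129%, 0.213%, 2.89% and 1.39% of all tested genes passed. Without control replicates 1 to 4 it was 7, 11, 4 and 3, against 12.8%, 13.4%, 2.97% and 1.01%.

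Of 18 tested genes of the NF-kappaB, Toll and interferon routes that control chemokine transcription, 3 rose and none fell. These were the Toll adaptor gene Myd88 (0.56 ± 0.15, relative log2 change ± SE, adjusted p = 0.0274), the myeloid factor gene Irf8 (0.77 ± 0.16, adjusted p = 0.0140) and the interferon receptor gene Ifnar2 (0.80 ± 0.24, adjusted p = 0.0427). The numbers were 0, 0, 1 and 1 without Bcl2l1-deleted replicates 1 to 4 and 4, 6, 2 and 1 without control replicates 1 to 4. Among 13 tested enzymes and receptors that process or resemble chemokines 1 rose, Adam17, a protease that sheds membrane proteins (0.72 ± 0.19, adjusted p = 0.0267), a call lost without any 1 of the Bcl2l1-deleted arrays, where 0 of the list passed. The list had 5 and 3 calls without control replicates 1 and 2. Of all genes tested, 4.93% rose and 1.60% fell with all arrays. The share of all tested genes that passed with an array left out was 0.129% to 13.4%. The relative log2 change was 0.35 for the platelet chemokine gene Pf4 (adjusted p = 0.0730) and 0.50 for Dpp4, which trims several ligands (adjusted p = 0.0803).

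Markers of other cell types were compared between the groups in the same fit. Of all genes tested, 4.93% rose and 1.60% fell. Of 19 measured microglia markers, Cx3cr1 included, 9 rose and none fell, with a median relative change of 0.74. Their mean level was 7.49 to 7.73 in the Bcl2l1-deleted tumours and 6.30 to 7.20 in the controls. The control arrays with the lowest Ccl3, replicates 2 and 4, also had the lowest microglia level, at 6.30 and 6.39. Cxcl16 had the same order over the controls as the microglia level (6.36, 5.73, 6.08 and 5.96 on replicates 1 to 4). Cxcl10 was also lowest on control replicates 2 and 4 (4.77 and 5.18). For Ccl2, Ccl28 and Cxcl5 the lowest controls were other pairs of replicates. Ccl2 was lowest on control replicate 1 (5.05), where the microglia level was the highest of the controls (7.20). Ccl3 was highest among the controls on replicate 3 (8.42), at a microglia level of 7.06. Control replicate 2 also had the narrowest spread of values (interquartile range 2.40, against 3.29 to 3.66 on the other arrays). Of 8 border macrophage markers 2 rose (mean level 5.89 to 6.42 against 5.36 to 5.82), of 9 endothelial markers, Ackr1 included, 5 rose (7.13 to 7.40 against 6.28 to 6.81), of 7 fibroblast and meningeal markers 4 rose (7.77 to 8.21 against 6.52 to 7.13) and of 6 astrocyte markers 2 rose (9.96 to 10.47 against 8.78 to 10.09). Their part in the ligand changes was not tested. With each of Bcl2l1-deleted replicates 1 to 4 left out, 0, 0, 2 and 3 microglia markers, 0, 0, 2 and 2 endothelial markers, 1, 1, 2 and 3 fibroblast and meningeal markers and 0, 1, 2 and 2 border macrophage markers passed. Without control replicates 1 to 4 the counts were 15, 10, 6 and 2, then 5, 6, 3 and 1, then 4, 5, 2 and 2, and 3, 2, 2 and 2 in the same order of cell types. The 6 endothelial calls without control replicate 2 were 5 higher and 1 lower, Ackr1. Of all tested genes, 0.129%, 0.213%, 2.89% and 1.39% passed without Bcl2l1-deleted replicates 1 to 4. Without control replicates 1 to 4 it was 12.8%, 13.4%, 2.97% and 1.01% of them.

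Blood leukocyte markers were mostly dim. Of 9 neutrophil markers 7 lay under the filter and none of the tested 2, Cxcr2 and Csf3r, passed, and their mean level was 3.96 to 4.38 in the Bcl2l1-deleted tumours and 3.97 to 4.45 in the controls. Of 9 T and NK cell markers 7 lay under the filter, with mean levels of 3.91 to 4.16 and 4.08 to 4.81. Monocyte markers (5.31 to 5.63 and 5.34 to 5.67), with Ly6c2 and Ccr2 under the filter, and B cell markers (4.31 to 4.60 and 4.07 to 4.42) had 0 of 3 tested genes past the threshold each in limma, with 1 each at an unadjusted p under 0.05. Of 6 dendritic cell markers, Xcr1 and Ccr7 included, none passed and 3 had an unadjusted p under 0.05 (5.21 to 5.80 and 5.64 to 6.10). Differentiating granule neuron markers fell in 6 of 8 genes (5.72 to 7.30 against 7.52 to 8.63), where 1.60% of all tested genes fell.

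The calls differed in how far they rested on single arrays. Cxcl16 passed in 7 of 8 settings with 1 array left out, missing without Bcl2l1-deleted replicate 1 (adjusted p = 0.0646). Ccl28 and Cxcl5 passed in 6, missing without Bcl2l1-deleted replicate 1 (0.0574 and 0.0654) and replicate 2 (0.0504 and 0.0558). Ccl3 passed in 5, missing without Bcl2l1-deleted replicates 1 and 2 and control replicate 4 (0.0905, 0.0742 and 0.0733). Ccl27a passed in 3 and Ccl2 in 2, with adjusted p up to 0.124 and 0.119, and Cxcl10 passed in 0 of 8 (adjusted p from 0.0522 to 0.148). Ccl27a was kept without Bcl2l1-deleted replicate 3 and control replicates 1 and 2, and Ccl2 without Bcl2l1-deleted replicate 3 and control replicate 2. Without Bcl2l1-deleted replicate 1 none of the 7 passed in limma, while 11 chemokine genes, and 21.7% of all tested genes, had an unadjusted p under 0.05. All 7 kept their direction in each of these settings, with relative changes of Cxcl10 from 0.74 to 1.26.

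**Figure D5:**
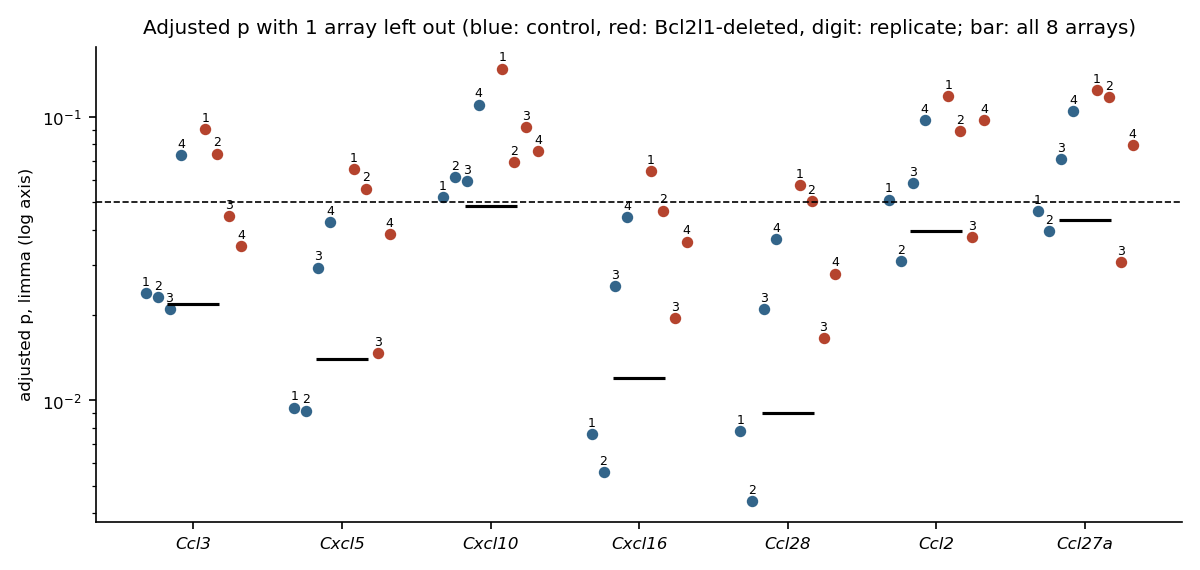
Adjusted p in limma (log axis) of the 7 called chemokine genes when 1 array was left out, with the dashed line at 0.05 and the black bars at the value from all 8 arrays. Points without a control array are blue and those without a Bcl2l1-deleted array red. Cxcl10 lies above the line in all 8 settings and Cxcl16 in 1, without Bcl2l1-deleted replicate 1.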

How the data were processed

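The deposited values are log2 RMA expression values per probe set, made by the authors with the gene expression workflow of Partek, per the labels. RMA corrects background, normalizes arrays and compresses differences near background. The sources used here do not give its version, options or genome build. Groups follow the titles and the genotype entry. A further field reads Bcl2l1 deleted for all samples and was not used. The design text names separate animals, and no batch is given. Each array is from its own animal, so the p-values rest on the spread between arrays, which limma moderates over all genes. In that spread, differences between animals and in array quality, as on control replicate 2, cannot be told apart.

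Of 41345 probe sets 23521 had 1 symbol, 1814 several and 16010 none. Symbols were checked by Entrez ID against RefSeq (GRCm38.p6; 23328 matched, 0 changed). The dimmest 30% of genes by mean signal, 6654 in number, were left untested. Differences were fitted over 15526 genes with limma 3.58.1 in R 4.3.3 (lmFit, eBayes, two-sided, Benjamini-Hochberg over all genes). Intervals are 95%. A list's mean level is the mean log2 value of its measured genes. On simulated data of Bcl2l1-deleted against control with 15526 genes, 95.0% of the 100 genes set to a change of 2 (log2) and 58.0% of the 100 set to 1 were recovered. There were 9 false calls.

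Named genes were all chemokine genes past the threshold, the 4 with the smallest p among the rest and a preset group including Cxcl12, Cxcr4, Cx3cl1 and Cx3cr1, and up to 4 called genes per pathway list. The remaining tested members, Rac2, Was and Tiam1, and Gnai2, Arrb2, Pf4 and Dpp4 as uncalled examples, were added after their values were seen. Members and lists were chosen with earlier results of these data known. Listed genes that had only shared probe sets or none are not analysed here. Same-numbered arrays did not deviate together (correlations -0.13 to 0.05), so replicate numbers were not used as pairs.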

Additional observations from a re-analysis of the deposited data

Results flagged for a closer look

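In 4 of the 114 groups of 4 values (57 genes in 2 groups), 1 array lay far from the other 3, where chance gives about 1 in 20. On control replicate 2, Ccr2 stood at 3.94 (3.67 to 3.71 on the other controls), Cxcl15 at 5.47 (3.66 to 3.87) and Cxcl12 at 6.65 (7.29 to 7.35). On Bcl2l1-deleted replicate 4, Ccr3 stood at 3.23 (2.77 to 2.80 on the others). Ccr2, Ccr3 and Cxcl15 were under the dim filter.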

How the results depend on the processing

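All 7 called chemokine genes kept their direction in all 20 alternatives, and Ccl28, Cxcl5 and Cxcl16 kept their call in all 12 that left no array out. The number of chemokine genes called was 7, and became 4 with no dim filter, 11 with array weights and 3 with the Xist level as a covariate. For the signalling list (7) it became 13 with array weights and 3 with either covariate, Xist or the chemosensory receptor median. For all genes (1013) it became 548 with no dim filter, 3494 with array weights, 508 with the replicate block and 200 with Xist. Leaving out 1 array gave 0 to 8, 0 to 11 and 20 to 2082. Higher and lower calls over all genes, 765 and 248, became 1337 and 171 when arrays were centred on all probe sets, 390 and 699 when centred on the genes tested, and 273 and 404 with the receptor median, with chemokine calls of 7 and 0, 4 and 3 (Ccl27a, Ackr1 and Xcr1 lower) and 4 and 1 (Ackr1 lower). The 11 with array weights included the receptors Ackr1, Xcr1 and Ccrl2. Over these alternatives the 7 genes kept their call 95 times and lost it 45 times. Ccl3 did not pass with Xist (adjusted p = 0.0536) or the receptor median (0.0774) as a covariate, Cxcl10 and Ccl27a did not with 6 of the 12 each (up to 0.205, and 0.260 with the mean of the Ccl27a probe sets, where it stood at -0.56), and Ccl2 with 4 (up to 0.130). The 9 microglia markers became 4 with no dim filter, 14 with array weights and 2 with either covariate. The 3 NF-kappaB genes became 7 with array weights, 5 centred on all probe sets and 1 with the block or Xist. The 1 processing gene became 6 with array weights, 4 with quantile normalization or centring on all probe sets, and 0 with either covariate. The cause of these shifts was not tested. With the replicate block 5 chemokine genes passed, without Ccl2 and Ccl27a (adjusted p = 0.0731 and 0.0621), and 6 signalling genes. Of the 8 arrays 0 correlated best with its own number. Array number and background signal limit what dim receptors can show.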

Other observations

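Probe sets annotated to several genes were outside the family as counted. Those of Ccl19, a lymph node homing ligand, and its copies numbered 13, with differences of group means (Bcl2l1-deleted minus control, log2, not adjusted for the median gene) of -0.76 to -0.56, and 4 were lower without overlap between groups, as were 4.46% of all tested genes. Control replicate 2 was high in these, and without it the differences were -0.48 to -0.067. Those of Ccl21, a ligand of Ccr7 like Ccl19, numbered 9, with differences of -0.97 to -0.75 (-0.72 to -0.56 without control replicate 2) and overlap in all 9. Those of Ccl27a, Ccl27b and copies numbered 11, with differences of -1.76 to -0.72 (-1.45 to -0.74 without that array), and 9 were lower without overlap. Several of these probe sets share values, so they are not independent readings, and which copy gave the signal cannot be told apart.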
